A study of Rattus norvegicus with 18 samples.

Results

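S100 proteins are small calcium-binding proteins with a pair of EF-hand motifs, and this account follows 8 of their genes through rat spinal cord material given bone morphogenetic protein (BMP) or ciliary neurotrophic factor (CNTF). The genes are S100b, S100a1, S100a4, S100a6, S100a8, S100a9, S100a10 and S100a11. They were chosen by platform symbol, and are 8 of the 14217 genes named by a single symbol. Each was read by 1 probe set, so that 8 of 31042 tested probe sets belong to them. The 18 single-channel Affymetrix arrays comprise 6 controls, 6 arrays of material given 10 ng/mL BMP and 6 of material given 10 ng/mL CNTF, both with a time of 4 days. The labels give no time for the controls. They leave out which BMP was used, as well as the cells, the animals, their age and any culture. All 18 descriptions open with the entry 14, and those of the controls go on with NT. Neither entry was interpreted. Whether the 6 arrays of a group stand for separate animals or cultures is not said, so a p-value here reflects array-to-array spread that may be technical.

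Most S100 proteins act as dimers that change shape on binding calcium and then dock onto target proteins. S100b is a classical marker of astrocytes that is also found in oligodendrocyte lineage cells. S100a10 is unusual in that it no longer binds calcium and sits in a complex with annexin A2 at the membrane, and S100a11 binds annexin A1. S100a4 binds non-muscle myosin and S100a6, or calcyclin, binds Cacybp and annexin A11. S100a8 and S100a9 form calprotectin, the abundant calcium-binding complex of neutrophils. Secreted S100 proteins can signal through the receptors Ager (RAGE) and Tlr4.

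In the RefSeq annotation of the GRCr8 assembly 7 of the 8 genes lie on chromosome 2 and S100b lies on chromosome 20. S100a4, S100a5 and S100a6 are direct neighbours there, as are S100a8 and S100a9, while S100a11 and S100a10 form a separate group with 1 gene between them. Promoters are shown for S100a4, S100a6 and S100a11, the members that passed the test against control, as the 150 bases before the transcript start in the RefSeq table (GRCr8), all on the plus strand. Capitals mark TATAAA, searched on the gene's strand, and GGGCGG, the GC box, searched on both strands. The windows are chr2:178388379-178388528 for S100a4, chr2:178398387-178398536 for S100a6 and chr2:181874982-181875131 for S100a11.
S100a4: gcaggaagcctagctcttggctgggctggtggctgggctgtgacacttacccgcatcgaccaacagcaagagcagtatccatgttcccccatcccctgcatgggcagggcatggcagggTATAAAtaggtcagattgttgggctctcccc
S100a6: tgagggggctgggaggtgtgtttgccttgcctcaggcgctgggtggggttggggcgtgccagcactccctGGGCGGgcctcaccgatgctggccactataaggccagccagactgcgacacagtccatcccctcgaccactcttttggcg
S100a11: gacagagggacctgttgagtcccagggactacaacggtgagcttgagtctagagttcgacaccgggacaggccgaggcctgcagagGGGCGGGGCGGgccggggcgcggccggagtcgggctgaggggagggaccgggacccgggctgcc

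The S100a4 window holds TATAAA starting 31 bases before the start, a match present in 5.15% of 33469 such windows. The S100a6 window holds GGGCGG at 80 bases and the S100a11 window holds it at 64 and 59 bases before the start, these last copies overlapping by 1 base. GGGCGG occurs in 26% of all windows. Neither TGANTCA, the AP-1 motif (both strands, 3.69% of windows), nor TTCNNNGAA, the STAT motif (both strands, 4.41%), has a match in the windows of the 5 members listed in the table, the other listed members being S100b and S100a9. These matches describe letters in these windows and are not evidence of binding.

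Levels are given as log2(intensity + 116.655), where the constant is the 20th percentile of the whole table. Differences and folds are on this scale, which understates changes of dim genes. On this scale the whole table has its median at 9.75. All p-values are from limma's two-sided test, adjusted over the 31042 probe sets by the Benjamini-Hochberg method, and a gene is called at an adjusted p under 0.05. The titles number the arrays of each group from 1 to 6. Arrays with the same number tended to deviate together from their group means, though some pairs with different numbers did so as closely. A second fit therefore used this title number as a block. Its p is given wherever it changes the call of a member, but only for some of the list genes whose call it changes. The deposited intensities had array medians between 666.5 and 817.2. In these bulk samples, fewer cells of a type and less RNA per cell cannot be told apart. Both comparisons against control share the same 6 control arrays.

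With BMP, 3 of the 8 S100 genes rose and none fell: S100a11 by 9.35-fold, S100a6 by 2.43-fold and S100a4 by 2.42-fold. The background was 6.01% of all probe sets called in this comparison (3.44% higher, 2.57% lower). With CNTF, S100a4 rose 4.04-fold and was the only member called, where 2.32% of all probe sets were called (1.58% higher, 0.738% lower). With the title number as a block, S100a4, S100a6, S100a10 and S100a11 were called higher in both comparisons, 4 of 8 members against 16.7% of all probe sets for BMP and 7.57% for CNTF. S100b, S100a1, S100a8 and S100a9 were called in neither fit of either comparison. The median difference of the 8 genes was 0.82 with BMP and 0.63 with CNTF, beside 0.01 and -0.01 over all probe sets. Higher levels than the control in all 6 same-numbered pairs were seen for 3 members with BMP and 4 with CNTF, and for 9.51% and 7.18% of all probe sets. Lower levels in all 6 pairs were seen for 0 members with either factor (8.37% and 7.31% of all probe sets). With BMP 0 members had groups that did not overlap (2.83% of all probe sets).

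**Figure D1:**
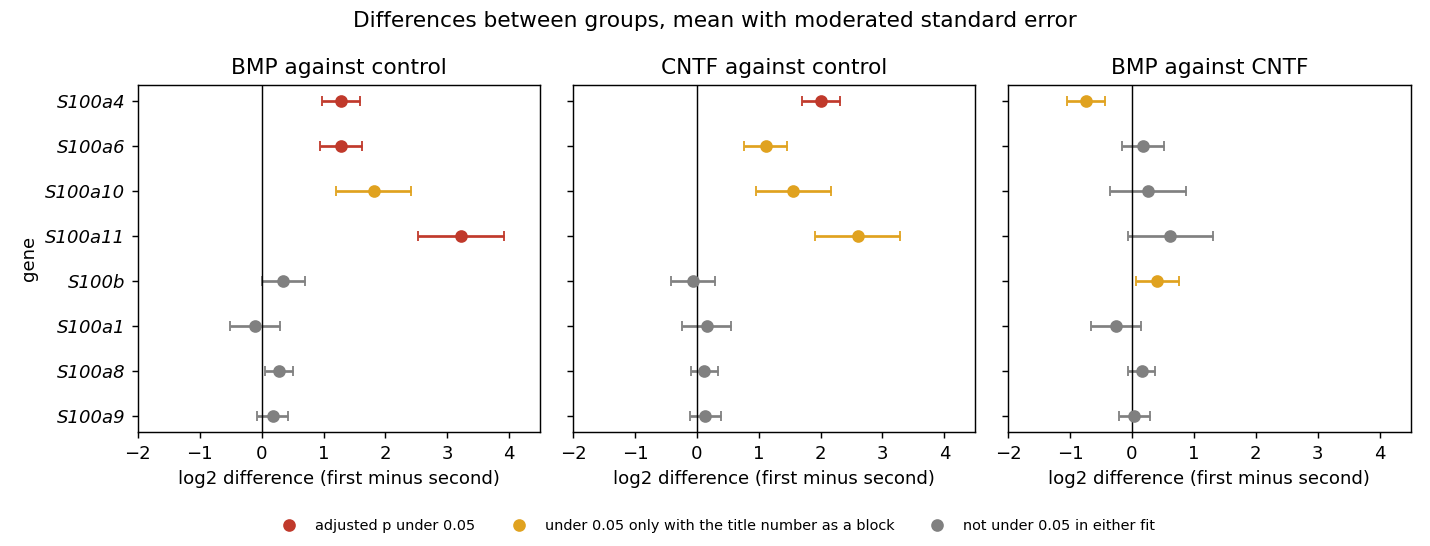
Log2 difference between group means for each S100 gene (rows) in the 3 comparisons (panels), with bars of 1 moderated standard error from limma, 6 arrays per group. Red points had an adjusted p under 0.05, amber points only with the title number as a block; the 4 genes at the top, S100a4, S100a6, S100a10 and S100a11, lie to the right of 0 in both comparisons against control.

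S100a4, whose protein regulates non-muscle myosin and cell motility, was the 1 member whose CNTF and control arrays did not overlap. Its control arrays ranged from 8.99 to 10.24 (median 9.56), its BMP arrays from 9.99 to 12.05 (median 10.71) and its CNTF arrays from 11.08 to 12.30 (median 11.38). Every CNTF array lay above every control, a separation seen for 1.97% of all probe sets, and 5 of 6 BMP arrays did. The CNTF mean was 11.59 ± 0.55 (SD, n = 6) against 9.57 ± 0.49 in controls, a difference of 2.01 ± 0.31 (limma's standard error, adjusted p = 0.00086). The BMP mean was 10.85 ± 0.71, a difference of 1.28 ± 0.31 (limma adjusted p = 0.0173).

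Within the title numbers the order of S100a4 was the same throughout: control lowest, BMP between and CNTF highest in 6 of 6. The rise over the control of the same number was 1.51, 1.94, 2.15, 2.11, 2.35 and 2.01 with CNTF (numbers 1 to 6). With BMP it was 0.75, 1.35, 0.99, 1.78, 2.10 and 0.68. The direct difference between BMP and CNTF was -0.74 ± 0.31 and missed the threshold in limma without the block (adjusted p = 0.203), but passed with it (limma adjusted p = 0.00585) and when BMP array 5 was left out (-0.98, limma adjusted p = 0.0481). The S100a4 call for BMP was lost when all arrays of number 2 or of number 4 were omitted (limma adjusted p = 0.0686 and 0.0725).

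S100a6, or calcyclin, a protein found in many dividing and reactive cell types, was higher with both factors and by similar amounts. The controls ranged from 8.63 to 10.26 (median 9.17), the BMP arrays from 9.78 to 11.71 (median 10.31) and the CNTF arrays from 9.84 to 11.19 (median 10.22). The groups overlapped through control 5 at 10.26, which lay above some arrays of each treated group. Group means were 9.32 ± 0.60, 10.60 ± 0.74 and 10.42 ± 0.58 (SD, n = 6 each). The difference was 1.28 ± 0.34 with BMP (limma adjusted p = 0.0281) and 1.11 ± 0.34 with CNTF (limma adjusted p = 0.113, and 0.00879 with the block).

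Both factors gave a higher S100a6 level than the same-numbered control in 6 of 6 pairs. The CNTF increments were even, between 0.82 and 1.43. The BMP increments were spread from 0.58 in number 6 to 2.66 in number 2. BMP array 2, at 11.71, was the highest S100a6 value of all 18. The BMP call was fragile: it was lost in 8 of 18 fits that left out 1 array or 1 title number. These were the fits without BMP array 2 or 5, control 1, 2 or 3, or all arrays of number 2, 3 or 4, with limma adjusted p from 0.0529 to 0.154. BMP and CNTF differed by 0.18 ± 0.34 (limma adjusted p = 0.879).

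**Figure D2:**
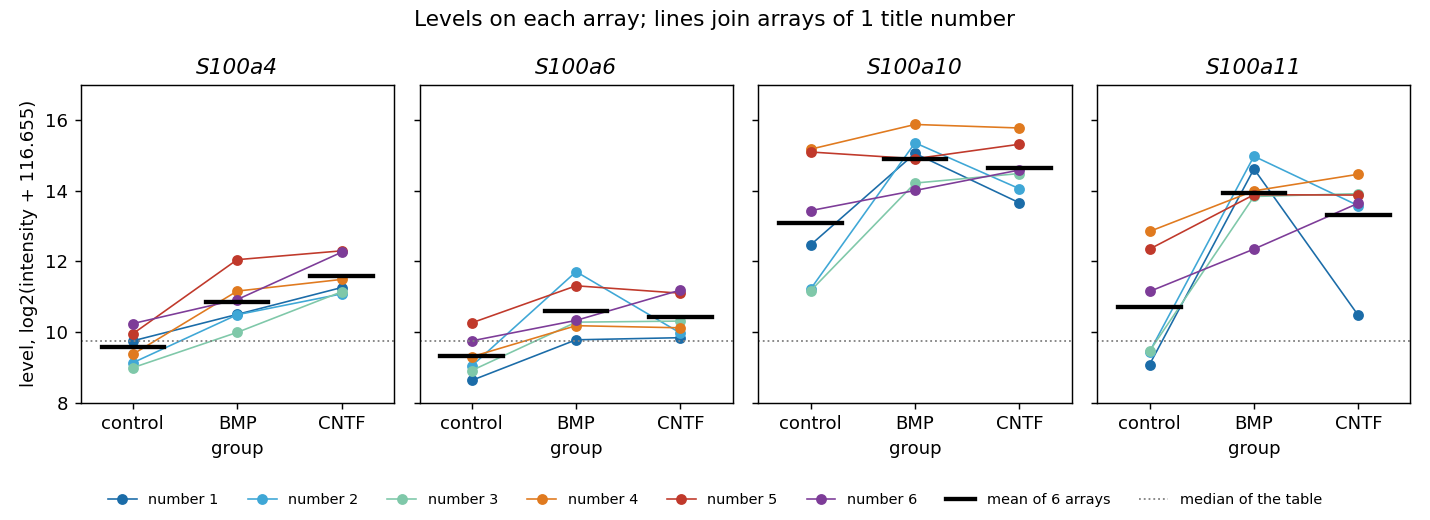
Level of S100a4, S100a6, S100a10 and S100a11 on each of 18 arrays (vertical axis, log2 scale with the constant included) by group; colored lines join arrays of 1 title number, black bars are means of 6 arrays and the dotted line is the median of the table, 9.75. For S100a10 and S100a11 the controls of numbers 1 to 3 sit at the bottom and most treated arrays converge near the top, while S100a4 climbs from control to BMP to CNTF on every line.

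S100a11, a partner of annexin A1 in membrane dynamics, had the largest differences from control among the 8 genes in both comparisons. The controls ranged from 9.08 to 12.85 (median 10.30), the BMP arrays from 12.35 to 14.98 (median 13.95) and the CNTF arrays from 10.47 to 14.47 (median 13.76). Except for BMP array 6 at 12.35 and CNTF array 1 at 10.47, all treated arrays lay above the highest control. The BMP mean was 13.95 ± 0.91 against 10.72 ± 1.63 in controls (SD, n = 6), a difference of 3.22 ± 0.69 (limma adjusted p = 0.00808).

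The CNTF mean of S100a11 was 13.33 ± 1.43, a 6.08-fold difference from control (2.60 ± 0.69) that just missed the threshold (limma adjusted p = 0.0549). CNTF array 1 weighed heavily here: without it the difference was 3.18 (limma adjusted p = 0.00533). The call was also made with the block (0.0177), with dim probe sets left out (0.0489), without control 4 (0.0207) or control 5 (0.0357) and without all arrays of number 1 (0.0163), all limma adjusted p. The BMP call was lost without all arrays of number 2 (limma adjusted p = 0.0763). BMP and CNTF differed by 0.62 ± 0.69 (limma adjusted p = 0.754). RefSeq lists 5 pseudogenes and 2 coding copies of S100a11 and 1 pseudogene of S100a10, and whether their transcripts reach these probe sets was not tested.

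S100a10, the annexin A2 partner also called p11, was bright on all arrays and missed the threshold against both factors. The controls ranged from 11.17 to 15.18 (median 12.95), the BMP arrays from 14.01 to 15.88 (median 14.99) and the CNTF arrays from 13.66 to 15.78 (median 14.54). Controls 4 and 5, at 15.18 and 15.10, stood among the treated arrays, while controls 1, 2, 3 and 6 lay below all of them. The means were 13.10 ± 1.79, 14.91 ± 0.70 and 14.65 ± 0.78 (SD, n = 6 each). The difference was 1.81 ± 0.61 with BMP (limma adjusted p = 0.0912, and 0.0104 with the block) and 1.56 ± 0.61 with CNTF (limma adjusted p = 0.285, and 0.0439 with the block). The BMP difference was called when control 4 or control 5 was left out (limma adjusted p = 0.0288 and 0.0316).

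For S100a10 and S100a11 the BMP increments were larger in title numbers 1 to 3 than in 4 to 6. In numbers 1, 2 and 3 S100a11 was higher with BMP by 5.54, 5.54 and 4.38, and in numbers 4, 5 and 6 by 1.15, 1.54 and 1.19. S100a10 was higher by 2.59, 4.15 and 3.05 in the former and differed by 0.70, -0.18 and 0.57 in the latter. With CNTF the numbers did not divide this way for S100a11, which was higher by 1.39, 4.14 and 4.46 in numbers 1 to 3 and by 1.61, 1.53 and 2.49 in numbers 4 to 6. For S100a10 the CNTF increments were 1.19, 2.85 and 3.33, then 0.60, 0.22 and 1.15. Among the controls, S100a11 was at 9.08 to 9.46 in controls 1 to 3 and at 11.15 to 12.85 in controls 4 to 6, and S100a10 at 11.17 to 12.47 and 13.44 to 15.18. The astrocyte filament gene Gfap had the same division in its controls, 8.39 to 11.73 in numbers 1 to 3 and 13.50 to 14.89 in numbers 4 to 6. So did S100a6 (8.63 to 9.04 and 9.30 to 10.26) and the annexins Anxa1, Anxa2, Anxa5 and Anxa11. The controls of S100a4 and S100b overlapped between these numbers, and S100a1 was higher in controls 1 to 3 (11.96 to 12.09 and 10.12 to 11.42). The labels do not say what the numbers stand for, and this division was noticed in the data and not tested. The share of all probe sets whose controls divide in this way was not counted, so the division cannot be called particular to these genes.

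The annexin partners were measured on the same arrays. Anxa2, the partner of S100a10, rose from 10.63 in controls to 13.67 with BMP (3.04 ± 0.44, limma adjusted p = 0.000697) and to 13.55 with CNTF (2.92 ± 0.44, limma adjusted p = 0.000746). Its rise over the same-numbered control was 4.24, 5.50 and 4.14 in numbers 1 to 3 with BMP and 1.80, 0.75 and 1.77 in numbers 4 to 6. With CNTF it was 2.46, 4.16 and 4.16, then 2.15, 1.93 and 2.66, so that number 6 exceeded number 1. A second, dim Anxa2 probe set differed by 0.83 and 0.67 and was not called (limma adjusted p = 0.106 and 0.37). Anxa1, the partner of S100a11, rose with BMP by 2.02 ± 0.53 (limma adjusted p = 0.0264) and differed by 1.25 ± 0.53 with CNTF (limma adjusted p = 0.34). On CNTF array 1, where S100a11 was at 10.47, Anxa1 was at 7.58 and Anxa2 at 12.41, each the lowest of its 6 CNTF arrays.

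**Figure D3:**
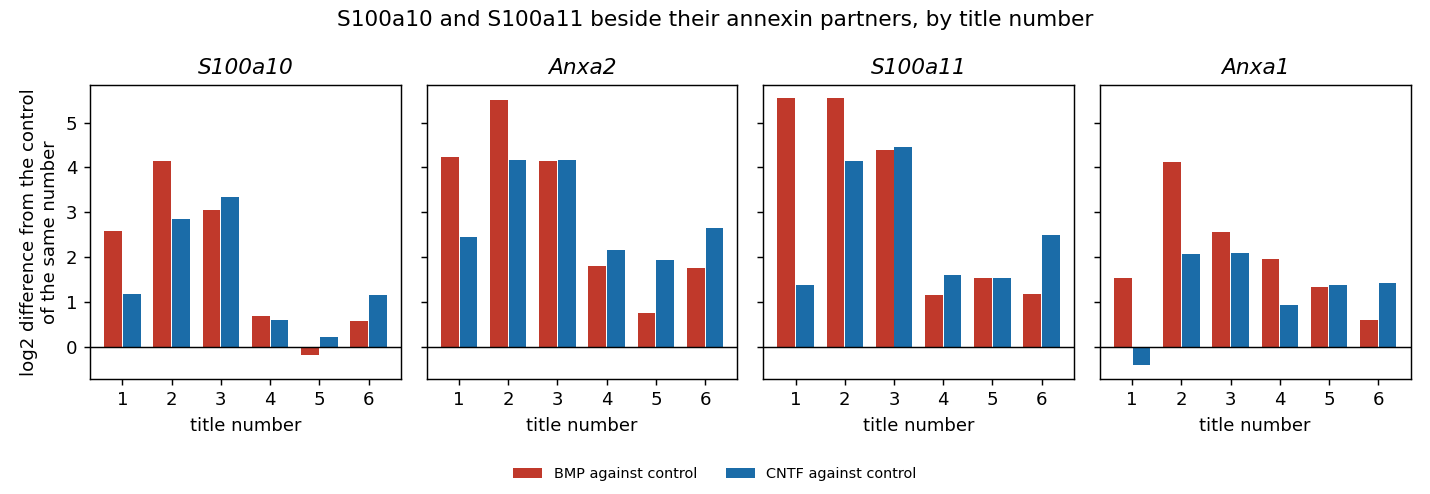
Log2 difference of each BMP array (red) and CNTF array (blue) from the control of the same title number (horizontal axis, 1 to 6) for S100a10 and its partner Anxa2 and for S100a11 and its partner Anxa1. In S100a10, Anxa2 and S100a11 the BMP bars of numbers 1 to 3 (2.59 to 5.54) are all taller than those of numbers 4 to 6 (-0.18 to 1.80).

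Of 22 listed binding partners of S100 proteins 20 were measured, each gene counted by its brightest probe set as in the lists that follow. With BMP 4 rose and 0 fell (6.01% of all probe sets called), and with CNTF 3 rose and 0 fell (2.32%). By their brightest probe sets the called partners were all annexins. Beside Anxa2 and Anxa1, Anxa11, which S100a6 binds, rose by 0.97 ± 0.14 with BMP and 0.56 ± 0.14 with CNTF (limma adjusted p = 0.000683 and 0.0386). Anxa5 rose by 1.57 ± 0.33 and 1.42 ± 0.33 (limma adjusted p = 0.00701 and 0.0245). The other listed annexin, Anxa6, differed by 0.15 and 0.02 and was not called. The median difference of the 20 partners was 0.13 with BMP and 0.03 with CNTF. With the block 8 rose and 2 fell with BMP and 4 rose and 0 fell with CNTF, beside 16.7% and 7.57% of all probe sets called.

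Outside the annexins, dimmer probe sets of a pair of partners were called with BMP where the brightest ones were called only with the block. For the scaffold protein Iqgap1 a dimmer probe set differed by 0.70 (limma adjusted p = 0.0264) and the brightest by 0.68 (limma adjusted p = 0.0688, and 0.0294 with the block). For the calcium pump Atp2a2 a dimmer probe set differed by -0.34 (limma adjusted p = 0.0393) and the brightest by -0.18 (limma adjusted p = 0.138, and 0.0131 with the block). Cacybp, the calcyclin-binding protein, differed by -0.17 ± 0.14 with BMP and -0.11 ± 0.14 with CNTF (limma adjusted p = 0.585 and 0.888). Myh9, the heavy chain of the non-muscle myosin that S100a4 binds, differed by 0.10 ± 0.19 and 0.11 ± 0.19 (limma adjusted p = 0.849 and 0.935). Plat, the plasminogen activator that binds S100a10, differed by 0.38 ± 0.18 and 0.54 ± 0.18 and was called with the block (limma adjusted p = 0.0153 and 0.00307).

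Of the 4 listed receptors of secreted S100 proteins none was called by limma in any comparison, with or without the block (0 at an unadjusted p under 0.05 with BMP, 1 with CNTF and 0 between the factors). Ager was at 9.01, 8.94 and 8.93 in control, BMP and CNTF, below the table median, and Tlr4 at 7.74, 7.56 and 7.31. Bsg, a receptor for S100a9, was bright in all groups (14.77, 14.73 and 14.78).

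S100b was bright in all groups and was not called against control with either factor. The controls ranged from 13.61 to 15.18 (median 14.23), the BMP arrays from 13.66 to 15.58 (median 14.99) and the CNTF arrays from 13.28 to 15.08 (median 14.49). The groups overlapped over most of their range, and array 6 was the highest in each of them. The means were 14.34 ± 0.56, 14.69 ± 0.77 and 14.28 ± 0.72 (SD, n = 6 each). The difference from control was 0.35 ± 0.35 with BMP (limma adjusted p = 0.679) and -0.06 ± 0.35 with CNTF (limma adjusted p = 0.984). In 5 of 6 title numbers, all but number 4, BMP had the highest S100b level of the 3 arrays. BMP exceeded CNTF in 6 of 6 numbers by 0.07 to 0.68, a difference of 0.41 ± 0.35 (limma adjusted p = 0.65) that was called with the block (0.41 ± 0.13, limma adjusted p = 0.0453).

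S100a1, known best from muscle and neurons, differed more between title numbers than between groups. The controls ranged from 10.12 to 12.09 (median 11.69), the BMP arrays from 10.24 to 11.98 (median 11.37) and the CNTF arrays from 10.33 to 12.51 (median 11.78). Number 4 was the lowest in every group. The 3 arrays of number 4 lay between 10.12 and 10.33, those of number 5 between 10.64 and 10.87 and those of number 3 between 11.95 and 12.09. The difference from control was -0.11 ± 0.40 with BMP and 0.16 ± 0.40 with CNTF (limma adjusted p = 0.932 and 0.959), and neither sign held in all fits that left out arrays.

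S100a8 and S100a9, the calprotectin genes, were at the dim end of the table. S100a8 had intensities between 3.71 and 143 and lay under the 20th percentile of the table on 15 of 18 arrays. S100a9 had intensities between 9.33 and 217 and lay under it on 13 of 18. At this signal a change could not be resolved. S100a8 differed from control by 0.28 ± 0.22 with BMP and 0.12 ± 0.22 with CNTF, and S100a9 by 0.18 ± 0.25 and 0.14 ± 0.25 (limma adjusted p from 0.576 to 0.936). Of 8 measured neutrophil and other myeloid markers none had a group mean above the table median, and Camp, Lcn2, Itgam and Ptprc lay under the 20th percentile on at least 10 arrays. Their summed intensity was 9.89 to 10.47 (log2) in controls, 9.52 to 10.38 with BMP and 9.78 to 10.61 with CNTF.

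**Figure D4:**
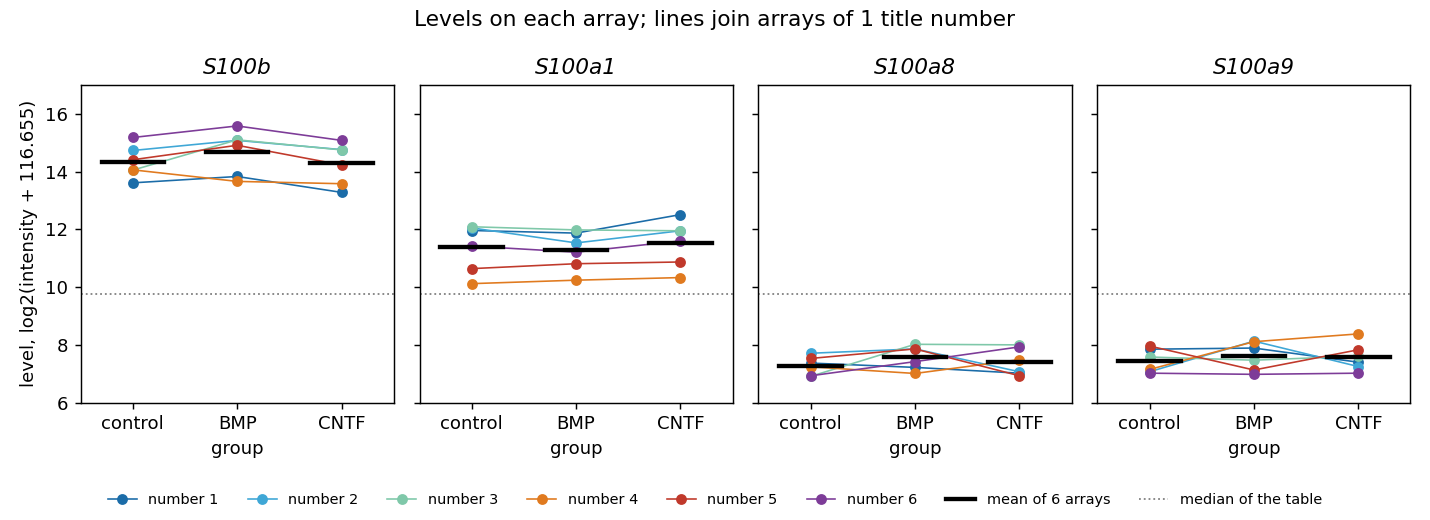
Level of S100b, S100a1, S100a8 and S100a9 on each of 18 arrays (vertical axis, log2 scale with the constant included) by group; lines join arrays of 1 title number, black bars are means of 6 arrays and the dotted line is the table median, 9.75. The lines of number 4 are the lowest of S100a1 (10.12 to 10.33) and those of number 6 the highest of S100b (15.08 to 15.58), with several other numbers overlapping, and the lines of S100a8 and S100a9 stay between 6.91 and 8.38, under the median.

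Between BMP and CNTF directly, 0 of 8 members were called by limma (1, S100a4, at an unadjusted p under 0.05), where 6.23% of all probe sets were called (3.24% higher, 2.99% lower with BMP). In all 6 pairs S100b was higher with BMP and S100a4 lower, beside 9.75% and 8.26% of all probe sets, and 0 members had groups that did not overlap (2.95%). With the block 2 were called, S100a4 lower and S100b higher with BMP, beside 15.1% of all probe sets. The median difference of the members was 0.17, beside 0.01 over all probe sets. For S100a6, S100a10 and S100a11 each factor had the highest level of the 3 arrays in 3 of the 6 title numbers. Misses of the threshold do not show that the factors act alike on these genes: the standard errors were 0.34, 0.61 and 0.69.

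Of 9 other genes with S100 symbols 7 were measured, among them S100pbp, which codes for a binding protein of S100P and is no family member. Limma called none of the 7 in any comparison (1 at an unadjusted p under 0.05 with BMP, 0 with CNTF and 0 between the factors). S100a5, which lies between S100a4 and S100a6, was under the 20th percentile of the table on all 18 arrays (6.99 to 7.18 in the group means). S100a13 was at 11.88 in controls, 11.93 with BMP and 12.51 with CNTF. With the block it was the 1 gene called with CNTF (0.62, limma adjusted p = 0.00814) and the 1 gene called between the factors (-0.58, limma adjusted p = 0.00679). S100a3 and S100a16 differed with CNTF by 0.53 ± 0.47 and 0.58 ± 0.43 (limma adjusted p = 0.802 and 0.729). The median difference of the 7 genes, S100pbp included, was 0.17 with BMP and 0.39 with CNTF.

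The genes whose profiles over the 18 arrays lay nearest to a called member were found among 9318 named genes by the root mean square difference of centred log2 levels. For S100a11 they were Anxa2 (0.80), S100a10 (0.93) and the semaphorin Sema3c (0.95), where the profile of S100a11 itself had an SD of 1.87. For S100a6 (SD 0.82) they were the actin bundling protein Pls3 (0.43), Ssc5d (0.47) and Ehd2 (0.51). For S100a4 (SD 0.99) they were the TNF receptor Tnfrsf1a (0.54), the cyclic GMP phosphodiesterase Pde9a (0.55) and the co-chaperone Bag3 (0.56). Pls3 differed from control by 1.28 ± 0.20 with BMP and 0.85 ± 0.20 with CNTF, and Tnfrsf1a by 0.48 ± 0.23 and 1.37 ± 0.23. These genes were picked for their likeness to called members on the same arrays, so their differences are a description with no test. The neighbours share the arrays, their title numbers and their scaling with the members.

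Markers of several cell types moved with the same groups, and their part in the S100 differences was not tested. Beside the counts that follow, 6.01% of all probe sets were called with BMP and 2.32% with CNTF. Of 7 astrocyte markers 1 rose with BMP (Aqp4, 2.33 ± 0.62, limma adjusted p = 0.0295) and 1 with CNTF (Gfap, 3.96 ± 0.78, limma adjusted p = 0.00708). Each was also higher with the other factor, and called there only with the block. Gfap differed by 2.33 ± 0.78 with BMP (limma adjusted p = 0.0867, and 0.0169 with the block). Aqp4 differed by 1.91 ± 0.62 with CNTF (limma adjusted p = 0.147, and 0.000311 with the block). Aldh1l1 of the same list differed by -0.96 ± 0.43 with BMP (limma adjusted p = 0.232) and -1.40 ± 0.43 with CNTF (limma adjusted p = 0.118, and 0.0301 with the block). The summed astrocyte intensity was 17.05 to 17.60 (log2) in controls, 17.13 to 17.81 with BMP and 17.66 to 18.19 with CNTF. Bright genes weigh most in this sum, and the median intensity of Gfap went from 7381.0 in controls to 86233.0 with CNTF. With CNTF the medians of Aqp4, Slc1a3 and Slc1a2 were also higher than in controls, and those of Aldoc, Gja1 and Aldh1l1 were lower. Of 6 fibroblast and smooth muscle markers 1 rose with BMP (Col1a2, 2.61 ± 0.50, limma adjusted p = 0.00349), and the summed level was 10.79 to 12.48 in controls, 12.54 to 15.24 with BMP and 10.58 to 13.10 with CNTF. Lum of this list was under the 20th percentile of the table on at least 10 arrays. Dimmer probe sets of this list were called for Col1a1 with BMP (1.58, limma adjusted p = 0.0292) and for Pdgfrb with CNTF (-1.04, limma adjusted p = 0.0151). All 4 oligodendrocyte precursor markers (Pdgfra, Cspg4, Olig2 and Sox10) and 3 of 6 oligodendrocyte markers (Mag, Cnp and Cldn11) fell with BMP and 0 with CNTF (limma, 1 and 0 at an unadjusted p under 0.05). The summed precursor level was 14.85 to 15.95 in controls, 12.23 to 15.01 with BMP and 14.67 to 15.66 with CNTF. The oligodendrocyte level was 15.82 to 17.58, 13.75 to 16.32 and 16.21 to 17.96 in the same order. Of 6 neuron markers Nefl rose with BMP (0.95 ± 0.15, limma adjusted p = 0.00125) and 0 were called with CNTF (limma, 2 at an unadjusted p under 0.05), with summed levels of 15.68 to 15.80, 15.66 to 16.13 and 15.43 to 15.76. Of 3 endothelial markers Tek rose with BMP (0.95 ± 0.26, limma adjusted p = 0.036), at summed levels of 6.46 to 8.55, 7.54 to 9.72 and 7.28 to 9.0. Of 2 Schwann cell markers Pmp2 rose with CNTF (1.29 ± 0.30, limma adjusted p = 0.0266), at 7.27 to 9.18, 8.55 to 9.96 and 8.96 to 10.16. The endothelial and Schwann cell markers were dim, with no group mean above the table median. Tek and Pmp2 each lay under the 20th percentile on 5 of 6 controls, and Pecam1 of the endothelial list on at least 10 arrays.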

How the data were processed

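The authors deposited 1 intensity on a linear scale for each of 31099 probe sets per array, with a 2% trimmed mean of 2500.0 on all 18 arrays. How the authors summarised and scaled them is not given in the sources used here. They were analysed as log2(intensity + 116.655). No use was made of the 57 probe sets for Affymetrix controls. Symbols came from the platform annotation, and all 8 members matched RefSeq by gene identifier. limma 3.58.1 (R 4.3.3) was fitted to all 18 arrays with group means and an intensity trend, and tested on simulated data first. Errors after ± are limma's standard errors for differences and SDs for levels. Same-numbered arrays of different groups correlated in their deviations from the group means (r = 0.121 to 0.491 in 18 pairs). Arrays of different numbers had r = -0.399 to 0.357 in 90 pairs, so the ranges overlapped. The title numbers were taken to pair the arrays, from the data and not from the labels. The rule named all members, list genes called in a comparison, Anxa2, Anxa1, Cacybp, Anxa11, Myh9, Ager, Tlr4 and Gfap, and the 3 nearest profiles per called member. All other uncalled list genes in the text were named after their values were seen, and some genes called only between BMP and CNTF are not named. Members, lists and tests were chosen with earlier results of these data known. A gene stands for its brightest probe set. Alternatives were a replicate block, other constants, 2 scalings, a filter on dim probe sets, no trend, 2 groups at a time and leaving out arrays or numbers.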

Additional observations from a re-analysis of the deposited data

Results flagged for a closer look

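S100a11 on CNTF array 1 lay at 10.47, far below the other 5 CNTF arrays at 13.58 to 14.47. The gap to the nearest array was 0.779 of the group's range. Among 24 groups of 6 arrays (8 genes in 3 groups) it was the 1 such value, and chance alone flags about 1 in 20 groups. On the same array Anxa1 was at 7.58 (other CNTF arrays 9.89 to 10.89) and the fibroblast and smooth muscle markers summed to 10.58 (11.61 to 13.10), while Gfap was at 15.78 (16.32 to 16.53). Control 1 was likewise the lowest control for S100a11 (9.08), Anxa1 (7.99), Gfap (8.39) and this sum (10.79). BMP array 1 was the lowest BMP array for Anxa1 (9.53) and Gfap (13.56), but not for S100a11 (14.62) or the sum (13.72).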

How the results depend on the processing

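Precision is limited by the 6 arrays in each group, and dim genes such as S100a8 and S100a9 have only an uncertain level. With the replicate block the called probe sets went from 1865 to 5176 for BMP against control, from 721 to 2349 for CNTF against control and from 1934 to 4686 for BMP against CNTF, and called members from 3 to 4, from 1 to 4 and from 0 to 2. With dim probe sets left out, 2 members were called with CNTF. Leaving out 1 array or 1 title number gave 740 to 2097, 366 to 795 and 1111 to 1985 called probe sets and 0 to 4, 1 to 2 and 0 to 1 called members, the lowest BMP counts being those without number 2. Calls higher in BMP than control made up 57.2% of all, 49.6% after quantile normalization and 35% with arrays centred on the median; the share was 52%, 47.7% and 39.9% for BMP against CNTF. No called member changed direction in any setting. Uncalled differences that changed sign were S100a9 between BMP and CNTF (0.04, but -0.01 with a constant of 1 and -0.03 with centred arrays) and, with arrays or numbers left out, S100a1 with BMP (-0.36 to 0.10) and CNTF (-0.09 to 0.40), S100a8 with CNTF (-0.07 to 0.28), S100a9 with CNTF (-0.08 to 0.26), S100b with CNTF (-0.22 to 0.14), and, between the factors, S100a6 (-0.14 to 0.38), S100a9 (-0.13 to 0.20) and S100a11 (-0.09 to 1.0).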

Other observations

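Of 12 measured EF-hand genes outside the S100 family, 2 rose and 1 fell with BMP (6.01% of all probe sets called), 0 were called with CNTF (limma, 0 also at an unadjusted p under 0.05 and 0 with the block), and 2 were higher with BMP than with CNTF (2.32% and 6.23% of all probe sets called). Calb2, the neuronal calcium buffer calretinin, was at 8.72 to 9.27 in controls, 10.31 to 12.26 with BMP and 8.37 to 9.50 with CNTF, so that all BMP arrays lay above all others. It rose by 1.93 ± 0.27 (limma adjusted p = 0.00054) and was 1.89 ± 0.27 higher with BMP than with CNTF (limma adjusted p = 0.00027). Vsnl1, a neuronal calcium sensor, rose by 1.05 ± 0.25 with BMP (limma adjusted p = 0.0171), and its second probe set differed by 0.86 (limma adjusted p = 0.0942). Ncald, neurocalcin delta, fell by 0.72 with BMP (limma adjusted p = 0.0202), and its second probe set differed by -0.67 (limma adjusted p = 0.227).

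A division by title number, noticed in the data and not tested, was seen in 4 S100 genes from the same stretch of chromosome 2, chosen after their values were seen. S100a14, which lies among them, did not follow it with BMP or CNTF, where the lowest arrays were those of number 3 (7.50 and 8.12). Its lowest control was number 4 (7.94), and the gene was dim, with intensities from 63.9 to 486. These values are from the brighter of 2 S100a14 probe sets. With BMP it differed from control by 0.42 and the dimmer probe set by -0.26, neither called by limma. On the 6 arrays of numbers 4 and 5, S100a1 was at 10.12 to 10.87, S100a13 at 10.35 to 11.60, S100a16 at 11.23 to 12.36 and S100a3 at 8.43 to 10.02. On the 12 arrays of the other numbers they were at 11.21 to 12.51, 12.25 to 13.37, 12.45 to 14.10 and 10.16 to 11.23, with no overlap in any of these 4 genes. How many of all probe sets separate these arrays was not counted, so the division cannot be called particular to these genes. S100a6, further along the same stretch, and S100b, on chromosome 20, overlapped between these arrays in every group. S100a4 overlapped in the controls and with CNTF. With BMP it was higher in numbers 4 and 5 (11.16 and 12.05) than in the others (9.99 to 10.92). Elsewhere on chromosome 2, S100a10 and S100a11 divided the opposite way in the controls. Numbers 4 and 5 were at 15.18 and 15.10 for S100a10 (others 11.17 to 13.44) and 12.85 and 12.35 for S100a11 (others 9.08 to 11.15). With CNTF S100a10 was also higher in numbers 4 and 5 (15.78 and 15.32, others 13.66 to 14.59). Both genes overlapped with BMP, and S100a11 also with CNTF.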
